A study of Mus musculus with 15 samples.

Results

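Transcript levels were described for 41 genes of MYC and ribosome biogenesis in mouse brown preadipocytes treated with paracrine fibroblast growth factors (FGFs). The genes were found by symbol, using for each symbol the transcript with the highest mean over the 15 libraries, and all 41 were present among 29072 symbols. By role they comprised 3 MYC factors, 3 nucleolar phosphoproteins, 4 box C/D and 4 box H/ACA small nucleolar ribonucleoprotein (snoRNP) genes, 6 genes of RNA polymerase I, 10 of small subunit assembly and 11 of large subunit assembly. Levels are given as RPKM, reads scaled to transcript length and library depth, and 40 of the 41 genes were among the 13869 tested genes, which reached 0.5 RPKM in at least 3 libraries. Mycn did not reach that level.

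The cells came from the stromal-vascular fraction of interscapular brown fat of 129SvEv mice and had been immortalised with the SV40 large T antigen, which every group carried. The 15 libraries formed 5 groups of 3. FGF1, FGF8b and FGF9 groups had 5.56 nM of the factor for 48 h, and the FGF8b plus BAY-876 group had the same FGF8b with 2 µM BAY-876, which blocks glucose uptake through GLUT1. The control group is labelled as having no agent, and no culture time is given for it. The series text gives 1 µg/ml heparin to the FGF treatments, whereas only the FGF9 samples carry it in their own labels, and neither source says whether the control cells had it. BAY-876 was given only together with FGF8b, so the comparisons below show its addition to FGF8b and not the compound alone. Whether replicate libraries stem from separate cultures is not stated, so p-values measure the spread between these samples, which may be technical. Library depth ran between 27.01 and 42.6 M recovered reads, and libraries of a group correlated at 0.991 to 0.997 (Pearson, log2 scale, across genes, which are not independent replicates).

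MYC is a transcription factor that binds DNA as a pair with MAX, preferentially at E-box sequences, and many genes of ribosome production are among its known targets. Ribosomes are built in the nucleolus: RNA polymerase I makes the long ribosomal RNA precursor, box C/D snoRNPs methylate it, box H/ACA snoRNPs convert uridines in it to pseudouridine, and assembly factors cut, fold and export it with ribosomal proteins as the small and the large subunit. Growing and dividing cells spend much of their energy on this pathway.

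The letters CACGTG, the canonical E-box bound by MYC and MAX, were looked for in the promoter windows of RefSeq (GRCm38.p6), which run from 250 bases before to 50 bases after each gene's start. Because the motif is its own reverse complement, 1 search covered both strands, and no other motif was searched. Windows were at hand for 35 of the 41 genes (not for Myc, Npm1, Fbl, Rrp12, Rrs1 and Bop1). At least 1 CACGTG was found in 8 of the 35 genes (22.9%), and in 2187 of 27025 genes with a window (8.09%). The 8 genes were Max, Nop2, Pes1, Rrn3, Tsr1, Utp18, Utp20 and Wdr43. A match is a description of these letters and does not show binding. The sites are given in 5′ to 3′ direction on the gene's strand with the motif in capitals, since they are the sequence feature by which the promoters of these genes can be compared.
Max, chr12:76962234-76962263, minus strand: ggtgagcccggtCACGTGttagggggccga
Nop2, chr6:125131811-125131840, plus strand: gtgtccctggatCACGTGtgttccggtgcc
Pes1, chr11:3963965-3963994, plus strand: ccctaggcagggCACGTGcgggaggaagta
Rrn3, chr16:13780472-13780501, plus strand: gagcgccaaggtCACGTGcacacgcctcta
Rrn3, chr16:13780639-13780668, plus strand: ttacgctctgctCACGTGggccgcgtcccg
Tsr1, chr11:74898092-74898121, plus strand: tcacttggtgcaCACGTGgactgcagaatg
Utp18, chr11:93885769-93885798, minus strand: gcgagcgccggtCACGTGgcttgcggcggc
Utp20, chr10:88826765-88826789, minus strand: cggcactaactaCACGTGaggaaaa
Wdr43, chr17:71616220-71616249, plus strand: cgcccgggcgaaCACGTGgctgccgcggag
Sites of Pes1, Tsr1, Utp20 and Wdr43 lay after the annotated start, in the first transcribed bases, and those of Max, Nop2, Rrn3 and Utp18 began before it. Nop2 carried the motif 60 bases before the start, and the 250 bases before that start are shown whole because Nop2 had 1 of the smallest adjusted p-values of the set after addition of BAY-876.
Nop2, chr6:125131633-125131882, plus strand: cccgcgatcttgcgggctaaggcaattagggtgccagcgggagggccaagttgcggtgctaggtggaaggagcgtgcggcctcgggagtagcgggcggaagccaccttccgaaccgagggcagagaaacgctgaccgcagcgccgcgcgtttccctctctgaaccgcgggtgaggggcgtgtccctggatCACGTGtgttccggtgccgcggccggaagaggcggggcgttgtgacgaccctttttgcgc

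Myc was higher in cells treated with FGF8b, FGF9 or FGF8b plus BAY-876 and lower in cells treated with FGF1 than in control cells. Its level was 7.32, 7.89 and 9.13 RPKM in the FGF1 libraries, 21.1, 18.0 and 21.6 RPKM with FGF8b, 20.7, 24.3 and 22.7 RPKM with FGF9, 24.3, 30.3 and 30.1 RPKM with FGF8b plus BAY-876, and 11.1, 9.04 and 10.6 RPKM in control. All 9 libraries with FGF8b or FGF9 lay above the control libraries, the 3 with BAY-876 lay above those with FGF8b alone, and the FGF1 and control libraries overlapped at their edge. The log2 change against control was 0.95 ± 0.11 for FGF8b (SE here and below, n = 3 libraries a group; limma with Benjamini-Hochberg adjustment, adjusted p = 1.46e-06), 1.10 ± 0.11 for FGF9 (adjusted p = 2.35e-07) and 1.41 ± 0.11 for FGF8b plus BAY-876 (adjusted p = 8.81e-09). Log2 changes are on the log2(RPKM + 0.5) scale, which understates the change of low genes. Between FGF8b plus BAY-876 and FGF8b alone, Myc differed by 0.47 ± 0.11 (limma, adjusted p = 0.00169). With FGF1 it changed by -0.32 ± 0.11 (limma, adjusted p = 0.0316), a call that was lost without FGF1 replicate 1 (-0.25, adjusted p = 0.132), FGF1 replicate 2 (-0.30, 0.0875), control replicate 1 (-0.26, 0.115) or control replicate 3 (-0.29, 0.0879), and with no filter on low genes (adjusted p = 0.0607).

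Mycn, the neural relative of Myc, was close to the floor of the assay, with 0.0334, 0.0792 and 0.109 RPKM in FGF1 libraries, 0.274, 0.210 and 0.378 RPKM with FGF8b, 0.107, 0.154 and 0.230 RPKM with FGF9, 0.0289, 0.0361 and 0.0502 RPKM with FGF8b plus BAY-876, and 0.0918, 0.0677 and 0.0570 RPKM in control. The FGF8b libraries lay above all FGF1, BAY-876 and control libraries and overlapped those with FGF9, while the BAY-876 libraries lay below all control libraries. These levels rest on 6 reads with FGF1, 25 with FGF8b, 18 with FGF9, 4 with FGF8b plus BAY-876 and 7 in control, summed over the group. The ratio to control was 3.91 for FGF8b (exact 95% interval 1.64 to 10.7), 2.25 for FGF9 (0.898 to 6.38), 1.01 for FGF1 (0.280 to 3.50) and 0.545 for FGF8b plus BAY-876 (0.117 to 2.14). These intervals cover counting error only, and Mycn was below the filter for the test. Where an alternative took it in, Mycn was lower with FGF8b plus BAY-876 than with FGF8b by limma: -1.20 (adjusted p = 2.28e-05) with the sum of its transcripts and -0.54 (0.000104) with no filter. Against control it was then higher with FGF8b (0.95 and 0.46, adjusted p = 0.000155 and 0.000319) and with FGF9 (0.45 and 0.21, 0.0319 and 0.0440). Because the mean of Mycn was highest with FGF8b, a filter on level can admit it through that group. The values with no filter rest on 1 to 10 reads a library. These p-values are therefore not independent support for a change of Mycn.

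Max, the partner through which MYC binds DNA, had 21.4, 19.4 and 20.5 RPKM with FGF1, 25.3, 24.0 and 22.4 RPKM with FGF8b, 26.9, 26.0 and 23.7 RPKM with FGF9, 28.0, 29.7 and 29.5 RPKM with FGF8b plus BAY-876, and 23.7, 21.3 and 21.7 RPKM in control. The BAY-876 libraries lay above all libraries of the other groups, and the FGF8b libraries overlapped control. The log2 change against control was 0.38 ± 0.07 there (limma, adjusted p = 8.10e-05) and 0.10 ± 0.07 with FGF8b (adjusted p = 0.189). With FGF9 it was 0.20 ± 0.07 (limma, adjusted p = 0.0158), which did not pass without FGF9 replicate 1 (0.16, adjusted p = 0.0671), without control replicate 2 (0.17, 0.0640), after trimmed-mean scaling of the libraries (0.0997, 0.214) or with only the 2 groups fitted (0.0502).

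**Figure D1:**
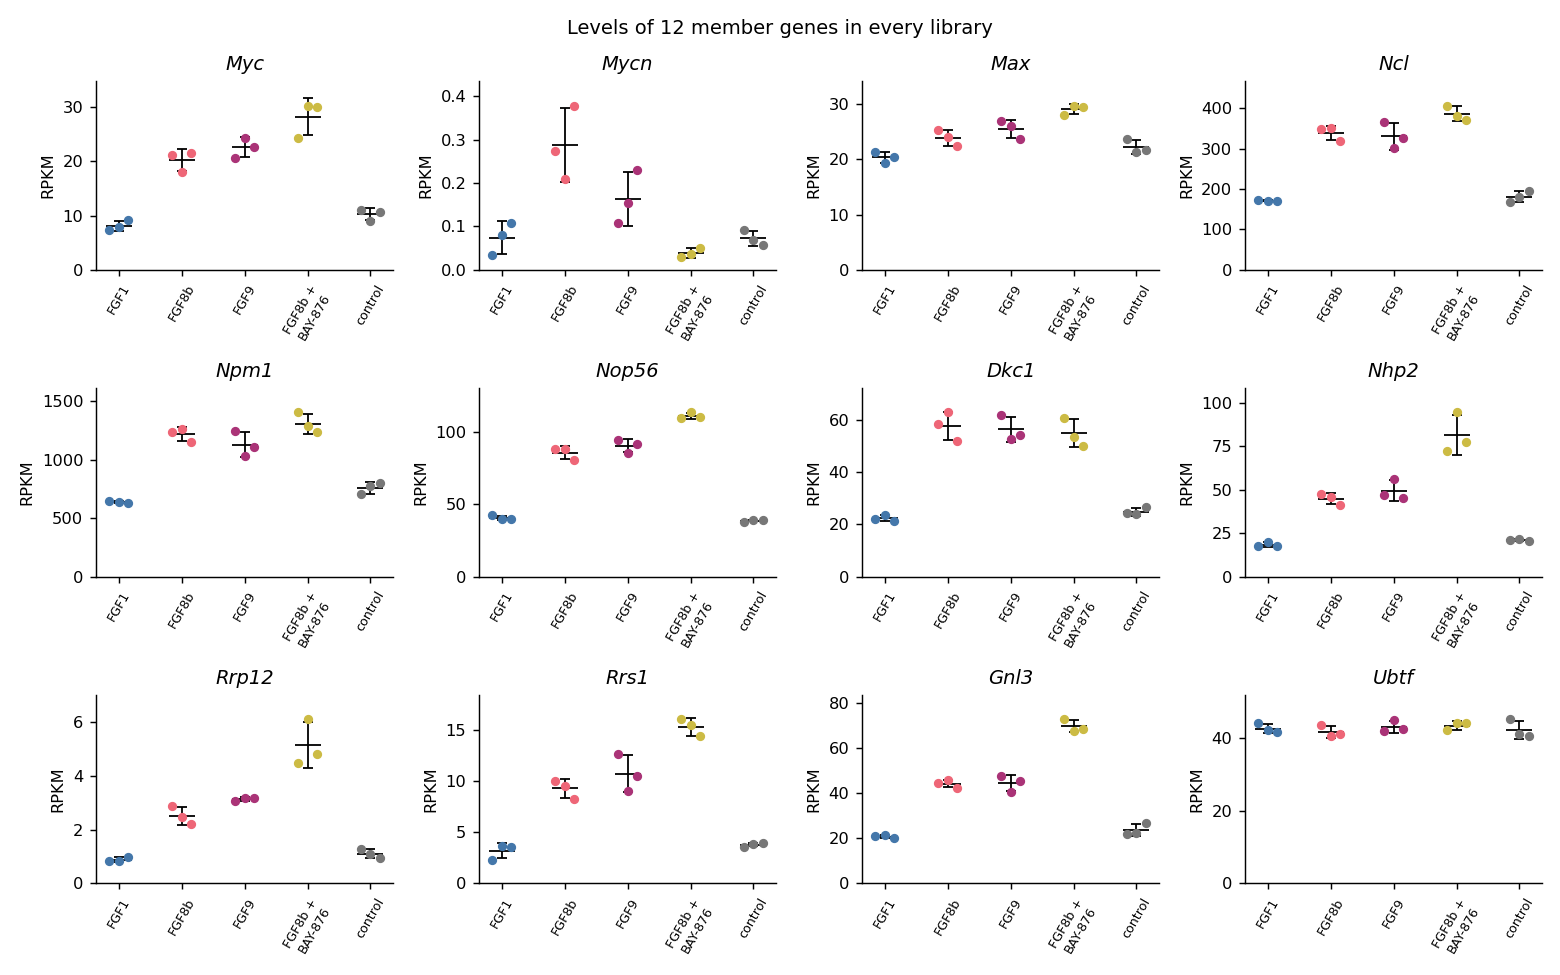
RPKM of 12 genes (vertical axes, each starting at 0) in every library of the 5 groups; points are libraries and the bar is the mean with its SD (n = 3). Myc, Nop56, Nhp2, Rrp12, Rrs1 and Gnl3 were higher with FGF8b, FGF9 and FGF8b plus BAY-876 than in control, Dkc1 was at a like height in these 3 groups (means of 57.8, 56.4 and 54.9 RPKM, against 24.8 RPKM in control), and Ubtf had means of 41.7 to 43.4 RPKM in all 5 groups.

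The rise extended over nearly the whole set. Against control, FGF8b raised 36 of the 40 tested genes and lowered 0 (limma, adjusted p under 0.05), where 37.8% of all tested genes were higher and 26.6% lower. FGF9 raised 38 and lowered 0, where 38.7% of all tested genes were higher and 27% lower. FGF8b plus BAY-876 raised 38 and lowered 0, where 36.8% of all tested genes were higher and 35.9% lower. Each count of 0 lower genes was also 0 at an unadjusted p under 0.05 and by limma voom on recovered reads. After trimmed-mean scaling the split over all tested genes turned over, to 4286 higher and 4397 lower with FGF8b (5238 and 3693 without it) and 4411 and 4450 with FGF9 (5369 and 3739 without it), while the medians of the 40 genes were 0.73 and 0.78. The median log2 change of the 40 genes was 0.82 with FGF8b (all tested genes 0.08), 0.88 with FGF9 (0.09) and 1.05 with FGF8b plus BAY-876 (0.01). All 3 libraries of the treated group lay above all 3 control libraries for 36 genes with FGF8b (39.4% of all tested genes), 38 with FGF9 (38.3%) and 38 with FGF8b plus BAY-876 (36.9%).

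FGF1 gave few calls. It raised 2 and lowered 8 of the 40 genes against control (limma), where 19.3% of all tested genes were higher and 15.1% lower, and the median change was -0.13 (all tested genes 0.02). After trimmed-mean scaling 2170 of all tested genes were higher and 2473 lower, in place of 2677 and 2095. Across the 5 groups 39 of the 40 genes differed (limma F-test, adjusted p under 0.05), as did 86.7% of all tested genes, and the exception was Ubtf (adjusted p = 0.842). The highest mean was in FGF8b plus BAY-876 for 30 genes, in FGF9 for 7 and in FGF8b for 3. The lowest was in FGF1 for 31 genes, in control for 8 and in FGF8b for 1. Groups with the highest and the lowest mean were not counted over all tested genes.

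**Figure D2:**
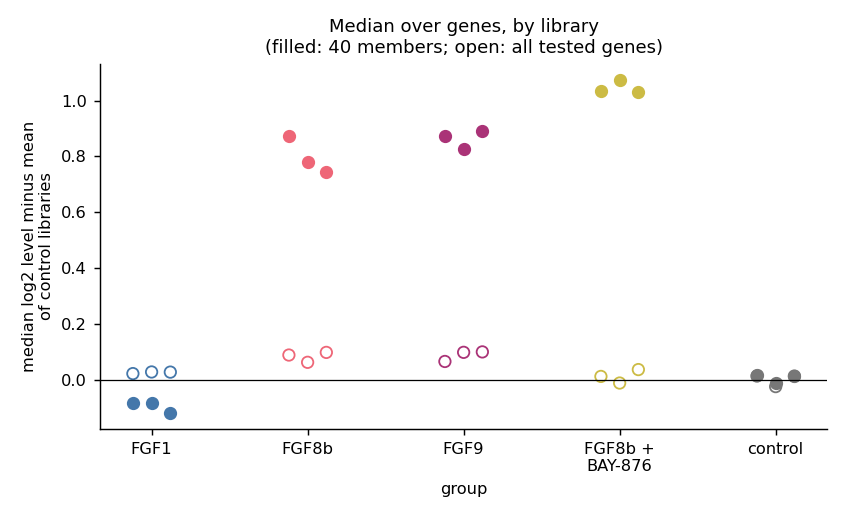
Median over the 40 tested genes (filled) and over all tested genes (open) of the log2 level minus the mean of the control libraries, for each of the 15 libraries. The 40 genes lay at -0.12 to -0.08 with FGF1, 0.74 to 0.87 with FGF8b, 0.83 to 0.89 with FGF9, 1.03 to 1.07 with FGF8b plus BAY-876 and -0.01 to 0.02 in control.

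Markers of other cell types the brown fat fraction could hold had low sums. Of 8 mature adipocyte markers 7 were under 0.1 RPKM in every group, and Fabp4 averaged 5.51 to 8.05 RPKM. Ptprc and Mrc1 of the macrophage list were under 0.1 RPKM in every group, and the list summed to 5.34 to 9.42 RPKM over all libraries, led by Cd14 or Itgam at means of 2.35 to 3.33 RPKM. Muscle markers summed to 4.13 to 8.45 RPKM, mainly Acta1 at means of 4.48 to 7.59 RPKM, with Myod1 and Myog under 0.1 RPKM. Schwann and neural markers summed to 3.65 to 4.19 RPKM with FGF1, 2.43 to 3.05 with FGF8b, 2.30 to 2.73 with FGF9, 2.48 to 2.63 with FGF8b plus BAY-876 and 4.78 to 5.30 in control, with Foxd3 under 0.1 RPKM. Endothelial markers summed to 1.68 to 1.77 RPKM with FGF1, 0.404 to 0.590 with FGF8b, 0.412 to 0.541 with FGF9, 1.84 to 2.11 with FGF8b plus BAY-876 and 7.66 to 8.98 in control, where Kdr held most of it and Pecam1 and Cdh5 were under 0.1 RPKM. All 8 preadipocyte markers were detected, and their sum moved with the changes described here: it was 3073 to 3179 RPKM with FGF1, 986 to 1171 RPKM with FGF8b, 1002 to 1019 RPKM with FGF9, 187 to 193 RPKM with FGF8b plus BAY-876 and 3080 to 3535 RPKM in control. Col3a1 had the highest mean of the preadipocyte list with FGF1 (1849 RPKM), FGF8b (579 RPKM), FGF9 (534 RPKM) and in control (1191 RPKM). The sum can hide single markers. With FGF1, 3 of the 8 were higher and 3 lower than in control (limma), where 19.3% and 15.1% of all tested genes were. FGF8b had 1 higher and 7 lower, where 37.8% and 26.6% of all tested genes were. The same counts held for FGF9, where 38.7% and 27% of all tested genes were higher and lower. In FGF8b plus BAY-876 0 were higher and all 8 lower, where 36.8% and 35.9% of all tested genes were. The part of these marker lists in the changes of the 41 genes was not tested. In bulk RNA, fewer cells of a kind and less RNA per cell cannot be told apart.

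**Figure D3:**
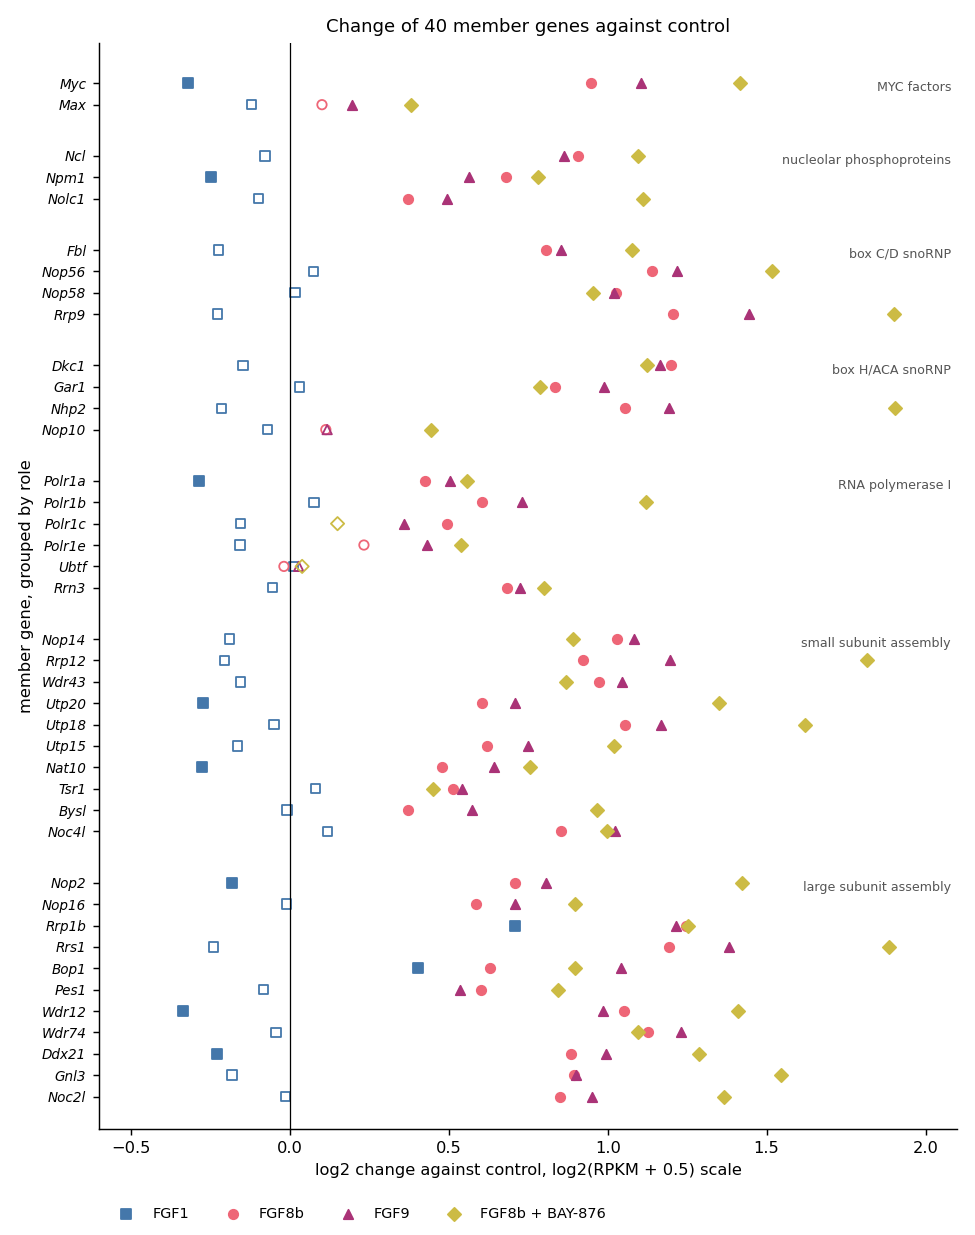
Log2 change against control of the 40 tested genes by role for FGF1, FGF8b, FGF9 and FGF8b plus BAY-876; filled symbols passed an adjusted p of 0.05 (limma) and open ones did not. FGF1 lay between -0.33 and 0.71, FGF8b between -0.02 and 1.25, FGF9 between 0.03 and 1.45 and FGF8b plus BAY-876 between 0.04 and 1.91.

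The 3 nucleolar phosphoproteins, chaperones and scaffolds of ribosome assembly, were higher with FGF8b, with FGF9 and with FGF8b plus BAY-876 than in control. Npm1, nucleophosmin, was by far the most abundant of the 41 genes, with 645, 638 and 632 RPKM with FGF1, 1236, 1265 and 1150.0 RPKM with FGF8b, 1242, 1033 and 1103 RPKM with FGF9, 1402, 1282 and 1237 RPKM with FGF8b plus BAY-876, and 702, 778 and 799.7 RPKM in control. The FGF1 libraries lay below and the other treated libraries above every control library. Ncl, nucleolin, averaged 171 ± 0.834 RPKM with FGF1, 339 ± 17.2 with FGF8b, 330.3 ± 32.7 with FGF9, 387 ± 17.9 with FGF8b plus BAY-876 and 181 ± 13.3 in control (SD, n = 3 each). Nolc1, which chaperones snoRNPs, had a smaller change with FGF8b (0.37 ± 0.06, limma, adjusted p = 2.92e-05) than with FGF8b plus BAY-876 (1.11 ± 0.06, adjusted p = 5.69e-11), and the difference between those groups was tested at 0.74 ± 0.06 (adjusted p = 2.90e-08). With FGF1, Npm1 changed by -0.25 ± 0.07 (limma, adjusted p = 0.0157), which did not pass without control replicate 2 (adjusted p = 0.0551) or 3 (0.0572).

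All 4 box C/D genes rose with FGF8b, FGF9 and FGF8b plus BAY-876. Nop56, a core protein of the particle, had 42.4, 39.8 and 39.7 RPKM with FGF1, 88.5, 88.4 and 80.2 RPKM with FGF8b, 94.4, 85.6 and 91.4 RPKM with FGF9, 109.6, 113 and 110.5 RPKM with FGF8b plus BAY-876, and 38.0, 38.8 and 38.9 RPKM in control. No library of the FGF8b, FGF9 or BAY-876 groups came near a control library, and the log2 changes were 1.14 ± 0.05, 1.22 ± 0.05 and 1.52 ± 0.05 (limma, adjusted p = 2.87e-11, 1.13e-11 and 4.79e-13). Its partner Nop58 averaged 105 ± 8.74 RPKM with FGF8b, 105 ± 9.66 with FGF9, 100.1 ± 9.74 with FGF8b plus BAY-876 and 51.3 ± 3.56 in control. Fbl, fibrillarin, the methyltransferase, averaged 55.9 ± 3.08, 57.9 ± 5.51 and 67.6 ± 5.02 RPKM in the same 3 treated groups, against 31.8 ± 3.32 RPKM in control. Rrp9, the protein that marks the U3 particle, was lower in level and wider in spread, with 2.92, 3.89 and 3.88 RPKM with FGF1, 11.8, 10.2 and 9.31 RPKM with FGF8b, 9.65, 16.3 and 11.9 RPKM with FGF9, 13.6, 21.3 and 17.3 RPKM with FGF8b plus BAY-876, and 4.44, 4.68 and 3.61 RPKM in control. Its log2 changes against control were 1.21 ± 0.18 for FGF8b, 1.45 ± 0.18 for FGF9 and 1.90 ± 0.18 for FGF8b plus BAY-876 (limma, adjusted p = 2.47e-05, 3.40e-06 and 1.11e-07).

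Among the 4 box H/ACA genes, Dkc1, Gar1 and Nhp2 rose with FGF8b and with FGF9, and Nop10 changed by 0.11 ± 0.07 and 0.12 ± 0.07 without passing (limma, adjusted p = 0.186 and 0.169). The FGF8b call of Nop10 passed without FGF8b replicate 3 (0.18, adjusted p = 0.0443). Dkc1, dyskerin, the pseudouridine synthase, had 22.1, 23.7 and 21.3 RPKM with FGF1, 58.4, 62.9 and 52.0 RPKM with FGF8b, 61.9, 52.8 and 54.4 RPKM with FGF9, 60.8, 53.6 and 50.2 RPKM with FGF8b plus BAY-876, and 24.2, 23.8 and 26.5 RPKM in control. Its 9 libraries with FGF8b or FGF9 lay in 1 band far above control, whether BAY-876 was present or not. Nhp2, a small RNA-binding subunit of the same particle, had 17.6, 19.8 and 17.3 RPKM with FGF1, 47.3, 45.7 and 41.2 RPKM with FGF8b, 47.1, 56.2 and 44.9 RPKM with FGF9, 72.4, 94.5 and 77.3 RPKM with FGF8b plus BAY-876, and 21.1, 21.9 and 20.7 RPKM in control. Here the BAY-876 libraries lay above all others. The log2 changes of these subunits with FGF8b plus BAY-876 against control were 1.91 ± 0.10 for Nhp2, 1.12 ± 0.09 for Dkc1, 0.79 ± 0.05 for Gar1 and 0.45 ± 0.07 for Nop10 (limma, adjusted p = 6.25e-11, 7.66e-09, 2.34e-09 and 4.91e-05).

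RNA polymerase I genes had the smallest changes of the assembly pathway, with medians of 0.46, 0.47 and 0.55 for FGF8b, FGF9 and FGF8b plus BAY-876 against control. Polr1a, the largest subunit, averaged 14.3 ± 0.722, 15.1 ± 0.503 and 15.7 ± 0.902 RPKM in these groups, against 10.5 ± 0.335 RPKM in control, and 8.52 ± 0.331 RPKM with FGF1. Polr1b, the second subunit, rose by 0.60 ± 0.08, 0.73 ± 0.08 and 1.12 ± 0.08 (limma, adjusted p = 1.27e-05, 1.50e-06 and 7.09e-09). Rrn3, the initiation factor that couples the polymerase to growth signals, averaged 17.4 ± 0.634, 18.0 ± 1.26 and 19.0 ± 0.539 RPKM, against 10.7 ± 0.834 RPKM in control. Polr1e changed by 0.23 ± 0.10 with FGF8b (limma, adjusted p = 0.0517) and passed without FGF8b replicate 2 (0.34, adjusted p = 0.00602) or control replicate 1 (0.28, 0.0427), and also with the sum of its transcripts (0.29, 0.0145) and with the RefSeq transcript (0.27, 0.00970).

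Ubtf, which bends ribosomal DNA for transcription, had 44.0, 42.1 and 41.6 RPKM with FGF1, 43.6, 40.5 and 41.1 RPKM with FGF8b, 41.9, 45.0 and 42.5 RPKM with FGF9, 42.1, 44.1 and 44.1 RPKM with FGF8b plus BAY-876, and 45.2, 41.2 and 40.6 RPKM in control. The libraries of all 5 groups overlapped. The 95% interval of its log2 change against control was -0.10 to 0.13 for FGF1, -0.13 to 0.10 for FGF8b, -0.09 to 0.14 for FGF9 and -0.08 to 0.15 for FGF8b plus BAY-876. Polr1c, a subunit shared with RNA polymerase III, had 34.1, 34.5 and 29.3 RPKM with FGF1, 54.2, 53.4 and 46.8 RPKM with FGF8b, 46.3, 51.2 and 42.9 RPKM with FGF9, 39.8, 38.9 and 42.4 RPKM with FGF8b plus BAY-876, and 45.4, 36.2 and 29.0 RPKM in control. Its control libraries were the most scattered of this role. It passed with FGF8b (0.50 ± 0.12, limma, adjusted p = 0.00224) and with FGF9 (0.36 ± 0.12, adjusted p = 0.0171), and the FGF9 call was lost without FGF9 replicate 2 (0.29, adjusted p = 0.0688), without control replicate 3 (0.20, 0.108), after trimmed-mean scaling (0.26, 0.0742) or with only the 2 groups fitted (0.0579). With FGF8b plus BAY-876 it changed by 0.15 ± 0.12 against control (adjusted p = 0.280), which passed without control replicate 1 (0.31, adjusted p = 0.0152).

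All 10 small subunit genes rose with FGF8b, FGF9 and FGF8b plus BAY-876, with medians of 0.74, 0.89 and 0.98. Rrp12, an export and maturation factor, was the least abundant tested gene of the set, with 0.831, 0.823 and 0.989 RPKM with FGF1, 2.87, 2.48 and 2.21 RPKM with FGF8b, 3.07, 3.18 and 3.17 RPKM with FGF9, 4.48, 6.11 and 4.81 RPKM with FGF8b plus BAY-876, and 1.27, 1.08 and 0.931 RPKM in control. Its groups formed steps with no overlap from FGF8b to FGF9 to FGF8b plus BAY-876. Utp18 and Utp20, parts of the early processome that cleaves the precursor, are both known to act early. Utp18 had 9.48, 8.96 and 7.84 RPKM with FGF1, 21.8, 19.2 and 17.3 RPKM with FGF8b, 23.1, 19.4 and 20.7 RPKM with FGF9, 30.4, 28.3 and 27.9 RPKM with FGF8b plus BAY-876, and 8.37, 9.27 and 9.57 RPKM in control. Utp20 had 5.33, 5.19 and 5.59 RPKM with FGF1, 11.0, 9.76 and 10.1 RPKM with FGF8b, 12.3, 9.44 and 11.7 RPKM with FGF9, 18.4, 16.3 and 18.0 RPKM with FGF8b plus BAY-876, and 6.67, 6.38 and 6.70 RPKM in control. For both genes the BAY-876 libraries were the highest, and only for Utp20 did every FGF1 library lie below control.

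With FGF8b against control, Utp18 changed by 1.06 ± 0.09 and Utp20 by 0.60 ± 0.09 (limma, adjusted p = 6.03e-08 and 1.68e-05). The other processome genes Nop14, Wdr43 and Utp15 changed by 1.03 ± 0.08, 0.97 ± 0.07 and 0.62 ± 0.07, and Noc4l by 0.85 ± 0.09. Nat10, the acetyltransferase of the small subunit RNA, changed by 0.48 ± 0.08, and Tsr1, a late assembly factor, by 0.51 ± 0.07. Bysl, which acts in late maturation, had the smallest change of the role that passed with FGF8b (0.37 ± 0.12, limma, adjusted p = 0.0121). Its call was lost without control replicate 2 (0.30, adjusted p = 0.0620) or 3 (0.32, 0.0502).

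All 11 large subunit genes rose with the same 3 treatments, with medians of 0.89 for FGF8b, 0.99 for FGF9 and 1.29 for FGF8b plus BAY-876. Rrs1, which brings the 5S particle to the early large subunit, had 2.33, 3.62 and 3.58 RPKM with FGF1, 10.1, 9.57 and 8.27 RPKM with FGF8b, 12.7, 9.03 and 10.5 RPKM with FGF9, 16.1, 15.5 and 14.4 RPKM with FGF8b plus BAY-876, and 3.61, 3.82 and 3.90 RPKM in control. The FGF8b and FGF9 libraries overlapped each other and lay between control and BAY-876. The log2 changes against control were 1.19 ± 0.14, 1.38 ± 0.14 and 1.89 ± 0.14 (limma, adjusted p = 1.49e-06, 2.62e-07 and 4.50e-09). Gnl3, nucleostemin, a GTPase of proliferating cells, had 20.8, 21.4 and 19.99 RPKM with FGF1, 44.4, 46.0 and 42.6 RPKM with FGF8b, 47.8, 40.7 and 45.2 RPKM with FGF9, 72.9, 67.9 and 68.6 RPKM with FGF8b plus BAY-876, and 21.8, 22.5 and 26.7 RPKM in control. Again the 3 BAY-876 libraries stood alone at the top.

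Pes1, Bop1 and Wdr12 form 1 complex of the large subunit pathway. Wdr12 had 7.48, 9.01 and 8.16 RPKM with FGF1, 22.3, 23.2 and 21.2 RPKM with FGF8b, 21.9, 20.9 and 20.9 RPKM with FGF9, 29.6, 28.7 and 27.7 RPKM with FGF8b plus BAY-876, and 10.4, 9.52 and 11.6 RPKM in control. Pes1 averaged 31.4 ± 0.137 RPKM with FGF1, 50.8 ± 2.55 with FGF8b, 48.5 ± 0.589 with FGF9, 60.1 ± 1.59 with FGF8b plus BAY-876 and 33.3 ± 1.68 in control. Both shared the order of FGF1 lowest and BAY-876 highest, whereas Bop1 had 9.24, 10.3 and 9.43 RPKM with FGF1, 13.9, 10.6 and 9.96 RPKM with FGF8b, 16.3, 15.1 and 14.6 RPKM with FGF9, 14.6, 14.9 and 12.1 RPKM with FGF8b plus BAY-876, and 7.65, 8.23 and 5.87 RPKM in control. The Bop1 transcript used was only 277 bases long.

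The remaining large subunit genes gave a mixed picture in the size of the rise. Rrp1b, a regulator of ribosomal RNA processing, had 6.88, 8.20 and 5.38 RPKM with FGF1, 10.1, 9.45 and 10.5 RPKM with FGF8b, 9.65, 9.79 and 9.86 RPKM with FGF9, 9.05, 10.9 and 10.3 RPKM with FGF8b plus BAY-876, and 3.66, 3.51 and 4.71 RPKM in control. It was the gene of the set with the largest change with FGF8b (1.25 ± 0.13, limma, adjusted p = 3.28e-07), and every treated library lay above control. Wdr74, a factor of early large subunit processing, had 12.7, 14.3 and 13.5 RPKM with FGF1, 34.2, 29.7 and 29.2 RPKM with FGF8b, 32.2, 34.4 and 33.4 RPKM with FGF9, 28.3, 32.2 and 30.3 RPKM with FGF8b plus BAY-876, and 14.4, 13.9 and 13.4 RPKM in control. The methyltransferase Nop2, the helicase Ddx21, Noc2l and Nop16 rose by 0.71 ± 0.06, 0.89 ± 0.07, 0.85 ± 0.06 and 0.59 ± 0.07 with FGF8b, and by 1.42 ± 0.06, 1.29 ± 0.07, 1.37 ± 0.06 and 0.90 ± 0.07 with FGF8b plus BAY-876.

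With FGF1 the calls were few and small. The 8 lower genes were Myc, Npm1, Polr1a, Utp20, Nat10, Nop2, Wdr12 and Ddx21, between -0.33 and -0.18 on the log2 scale. Of these, Polr1a (-0.28 ± 0.06, limma, adjusted p = 0.00209), Nat10 (-0.28 ± 0.08, 0.00970) and Wdr12 (-0.33 ± 0.08, 0.00275) passed whichever library was left out, and the calls of the other 5 were each lost without at least 1 library. The call of Utp20 was lost without FGF1 replicate 1 or 2 or control replicate 1 or 3 (adjusted p = 0.0605 to 0.0787), that of Nop2 without FGF1 replicate 1 or 2 or control replicate 1 or 2 (0.0549 to 0.101), and that of Ddx21 without FGF1 replicate 1 or 3 or control replicate 3 (0.0529 to 0.0797). The call of Utp20 was also lost by voom (0.0545), and that of Nop2 with only the 2 groups fitted (0.0580). Without FGF1 replicate 1, 4 genes were lower, and after trimmed-mean scaling 13 were. The 2 higher genes were Rrp1b (0.71 ± 0.13, limma, adjusted p = 0.000367) and Bop1 (0.40 ± 0.13, adjusted p = 0.0221). The Bop1 call was lost with the RefSeq transcript (0.20, adjusted p = 0.224), with the sum of its transcripts (0.26, 0.0909), by voom (0.43, 0.0671) and without FGF1 replicate 2 (0.36, 0.0815) or control replicate 3 (0.27, 0.113).

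FGF8b was set against FGF1 directly as well, a comparison added after the values had been seen. FGF8b was higher for 38 genes and lower for 0 (limma), where 33.3% of all tested genes were higher and 26.6% lower, and 0 genes were lower at an unadjusted p under 0.05 or by voom. The median difference was 0.87 (all tested genes 0.04). Rrs1, Rrp9, Wdr12, Dkc1, Nhp2 and Myc led, with differences of 1.43 ± 0.14, 1.43 ± 0.18, 1.39 ± 0.08, 1.35 ± 0.09, 1.27 ± 0.10 and 1.27 ± 0.11. Ubtf (-0.03 ± 0.05) and Bop1 (0.23 ± 0.13) did not pass (limma, adjusted p = 0.653 and 0.134), but Bop1, read from a transcript of 277 bases, passed with the sum of its transcripts (0.38, adjusted p = 0.00999) and with the RefSeq transcript (0.41, 0.00863). The call of Nop10 (0.18 ± 0.07, adjusted p = 0.0401) was lost without FGF1 replicate 3, FGF8b replicate 1 or FGF8b replicate 2 (adjusted p = 0.135 to 0.194), with no filter (0.0638), after trimmed-mean scaling (0.159) and by voom (0.0520), and that of Bysl (0.38 ± 0.12, 0.0113) with the RefSeq transcript (0.07, adjusted p = 0.379) and without FGF1 replicate 2 (0.32, 0.0525).

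No gene of the set passed between FGF9 and FGF8b. FGF9 was higher than FGF8b for 0 and lower for 0 of the 40 genes (limma, adjusted p under 0.05), where 0.202% of all tested genes were higher and 0.0937% lower. At an unadjusted p under 0.05, 4 genes were higher and 0 lower, and voom called 0 in either direction. The differences ran from -0.14 for Polr1c to 0.41 for Bop1, which had the lowest adjusted p (0.376), and their median was 0.10. The 95% intervals of the 40 genes lay within -0.40 to 0.68. The means of Myc were 22.6 ± 1.85 RPKM with FGF9 and 20.2 ± 1.97 RPKM with FGF8b (SD, n = 3 each), a difference of 0.16 ± 0.11.

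Addition of BAY-876 to FGF8b raised 25 of the 40 genes above FGF8b alone and lowered 1 (limma), where 22.5% of all tested genes were higher and 34.8% lower. After trimmed-mean scaling that split over all tested genes was 3939 higher and 3987 lower genes, in place of 3117 and 4824. The median change of the 40 genes was 0.29 (all tested genes -0.08). Rrp12 (0.89 ± 0.12, limma, adjusted p = 9.64e-06), Nhp2 (0.85 ± 0.10, 2.52e-06), Utp20 (0.74 ± 0.09, 2.84e-06), Nolc1 (0.74 ± 0.06, 2.90e-08), Nop2 (0.72 ± 0.06, 5.50e-08) and Rrp9 (0.70 ± 0.18, 0.00382) had the largest rises. Nolc1 had 36.7, 39.0 and 37.7 RPKM with FGF8b plus BAY-876 and 23.3, 21.2 and 22.9 RPKM with FGF8b, and Nop2 had 33.3, 37.1 and 36.6 RPKM against 22.2, 21.2 and 21.1 RPKM. For all 6 the libraries of the 2 groups did not overlap.

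The 14 genes that did not pass this comparison were Npm1, Nop58, Dkc1, Gar1, Polr1a, Ubtf, Rrn3, Nop14, Wdr43, Tsr1, Noc4l, Rrp1b, Bop1 and Wdr74. The 95% interval of the difference was -0.25 to 0.11 for Nop58, -0.26 to 0.11 for Dkc1, -0.16 to 0.07 for Gar1, -0.30 to 0.03 for Nop14, -0.25 to 0.05 for Wdr43 and -0.26 to 0.27 for Rrp1b. Of the snoRNP genes, Nop56 (0.38 ± 0.05), Fbl, Rrp9, Nhp2 and Nop10 passed upward in this comparison and Nop58, Dkc1 and Gar1 did not pass. Polr1c was the lower gene (-0.35 ± 0.12, limma, adjusted p = 0.0244). Its call was lost without FGF8b replicate 1 (adjusted p = 0.0799) or 2 (0.0727) or BAY-876 replicate 1 (0.0541) or 2 (0.0717), after trimmed-mean scaling (0.0833) and with no filter (0.0535). Nop14 passed as lower with the RefSeq transcript (-0.14, adjusted p = 0.0407). After trimmed-mean scaling Polr1a (0.22, adjusted p = 0.00619), Ubtf (0.14, 0.0313), Rrn3 (0.20, 0.0230), Noc4l (0.23, 0.0241) and Bop1 (0.35, 0.0327) passed as higher. Small rises were lost too: Ncl (0.19 ± 0.07, adjusted p = 0.0324) did not pass without FGF8b replicate 3 (0.128) or BAY-876 replicate 1 (0.116) or 2 (0.0561) or with no filter (0.0581), Fbl (0.27 ± 0.08, 0.0127) without FGF8b replicate 3 (0.0548) or BAY-876 replicate 2 (0.0663), and Polr1e (0.31 ± 0.10, 0.0160) without FGF8b replicate 2 (0.0995) or BAY-876 replicate 2 (0.0550). Polr1a (0.13 ± 0.06, 0.0811) passed without FGF8b replicate 3 (0.0472) or BAY-876 replicate 2 (0.0410) and by voom (0.0438), and Bop1 (0.27 ± 0.13, 0.0831) without FGF8b replicate 1 (0.0114) or BAY-876 replicate 3 (0.0400). Of 8 preadipocyte markers 7 were lower and 1 higher in the same comparison, where 34.8% of all tested genes were lower and 22.5% higher. Their sum was 187 to 193 RPKM with FGF8b plus BAY-876, against 986 to 1171 RPKM with FGF8b alone. The part of these markers in the comparison was not tested.

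**Figure D4:**
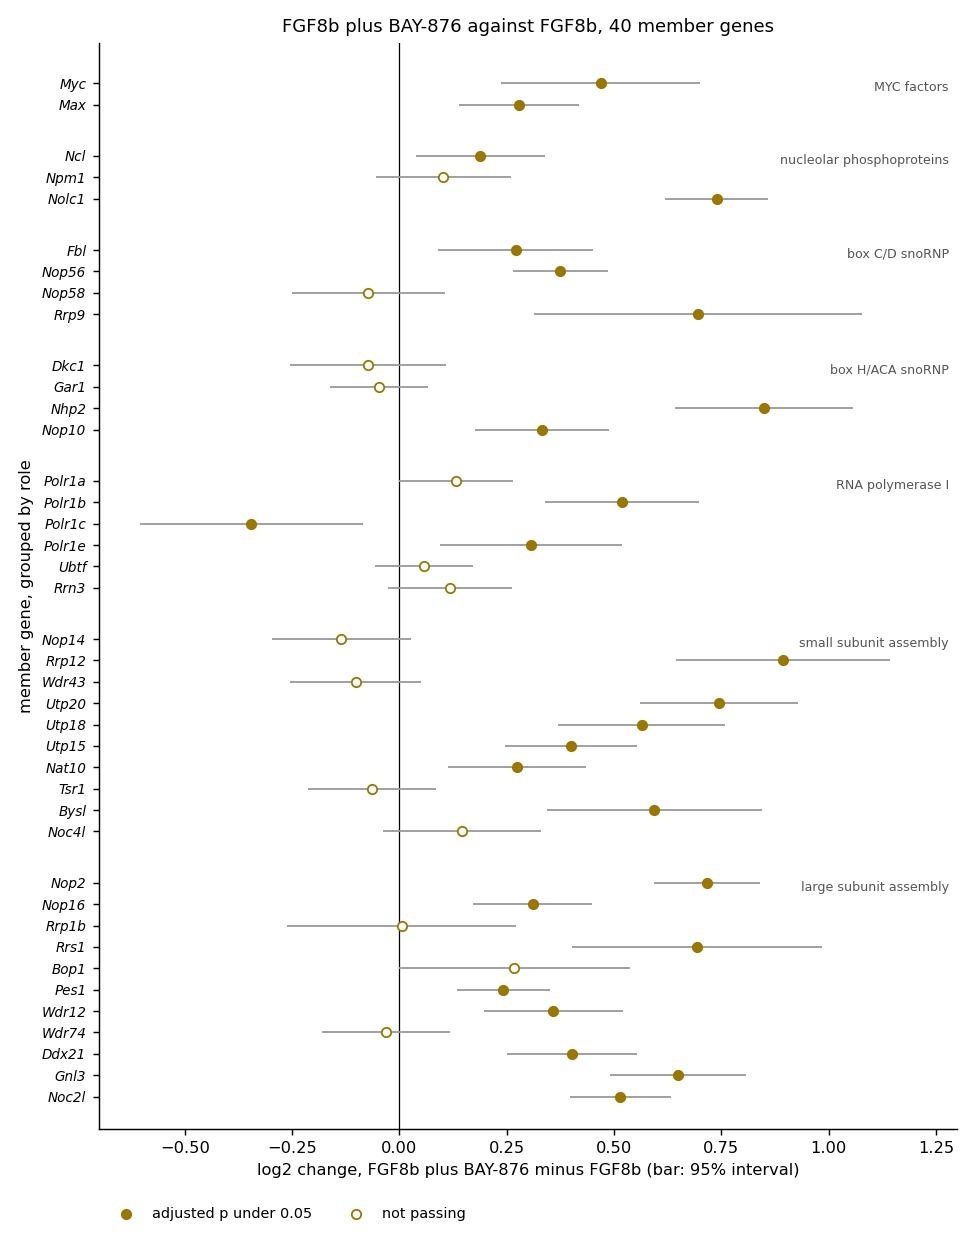
Log2 difference between FGF8b plus BAY-876 and FGF8b for the 40 tested genes by role (points) with 95% intervals (bars); filled points passed an adjusted p of 0.05 (limma). Rrp12 and Nhp2 lay farthest to the right at 0.89 and 0.85, and Polr1c was the only filled point left of 0, at -0.35.

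Genes of the pathway outside the set were read from lists of the other factors. The all-gene shares to read the counts against are, with FGF8b, 37.8% higher and 26.6% lower. With FGF8b against control, all 35 tested factors of large subunit assembly were higher (median 0.65), as were 32 of 35 of small subunit assembly (median 0.48), with 0 lower in either list by limma, at an unadjusted p under 0.05 or by voom. Ebna1bp2 and Mrto4 of the large subunit averaged 97.9 and 68.2 RPKM with FGF8b, against 41.7 and 29.7 RPKM in control, and Dimt1 and Mphosph10 of the small subunit averaged 24.9 and 21.5 RPKM, against 10.1 and 9.58 RPKM. Of 78 cytosolic ribosomal protein genes 49 were higher and 0 lower by limma (1 lower at an unadjusted p under 0.05, and 1 by voom), with a median of 0.28. Of 12 further genes of RNA polymerase I machinery 7 were higher and 1 lower (median 0.21), and of 18 genes of RNA polymerase III, which makes 5S and transfer RNA, 8 (44.4%, near the share of all tested genes) were higher and 0 lower (median 0.14; 0 lower also at an unadjusted p under 0.05 and by voom). Polr3e led that list at 7.23 RPKM with FGF8b and 2.62 RPKM in control (1.31 ± 0.09, limma, adjusted p = 4.62e-09). FGF9 gave 34 higher genes of 35 for the large subunit and 31 of 35 for the small subunit. It gave 36 higher (46.2%) and 4 lower of 78 ribosomal proteins. Of RNA polymerase III genes, 11 of 18 (61.1%) were higher and 0 lower with FGF9. Of the further RNA polymerase I genes, 5 of 12 (41.7%) were higher and 1 lower. With FGF9, 38.7% of all tested genes were higher and 27% lower. With FGF8b plus BAY-876 against control, 12 of 18 RNA polymerase III genes (66.7%) were higher and 2 lower. There 5 of 12 further RNA polymerase I genes (41.7%) were higher and 1 lower, beside 36.8% and 35.9% of all tested genes.

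The same lists were read for BAY-876 added to FGF8b. Over all tested genes, 22.5% were higher and 34.8% lower. Of 35 small subunit factors 19 were higher and 7 lower than with FGF8b alone (median 0.20). Of 35 large subunit factors 9 (25.7%, near the share of all tested genes) were higher and 5 lower (median 0.09). Among ribosomal proteins 23 of 78 (29.5%) were higher and 4 lower (median 0.17). Of 12 further RNA polymerase I genes 3 (25%) were higher and 4 (33.3%) lower, near the shares of all tested genes. Their median was -0.10 (all tested genes -0.08). Of 18 RNA polymerase III genes 7 (38.9%) were higher and 2 lower (median 0.14). Rpl3 averaged 939.9 RPKM with FGF8b plus BAY-876 and 1295 RPKM with FGF8b (-0.46 ± 0.05, limma, adjusted p = 1.63e-06). Dimt1 also fell, to 19.0 RPKM against 24.9 RPKM (-0.38 ± 0.08, adjusted p = 0.000631).

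Host genes of small nucleolar RNAs, whose introns carry the guide RNAs of the snoRNPs, were measured as well. With FGF8b against control 6 of 9 were higher and 0 lower (median 0.50; 0 lower also at an unadjusted p under 0.05 and by voom), where 37.8% of all tested genes were higher and 26.6% lower. With FGF8b plus BAY-876 against FGF8b, 0 were higher (also at an unadjusted p under 0.05 and by voom) and 3 lower by limma (Snhg1, Snhg5 and Snhg7, of which Snhg7 was chosen after its values were seen). That share of lower genes (33.3%) was near the 34.8% of all tested genes. Snhg1 averaged 134 RPKM with FGF8b plus BAY-876 and 273 RPKM with FGF8b (-1.02 ± 0.07, limma, adjusted p = 8.85e-09), and the control mean was 130.05 RPKM. Snhg5 averaged 31.6 RPKM with FGF8b plus BAY-876 and 52.4 RPKM with FGF8b (-0.72 ± 0.05, adjusted p = 1.20e-08). The table does not say whether reads marked the strand, so genes that overlap others cannot be separated from them.

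Among targets of MYC with roles outside the ribosome, 29 were tested, and 26 were higher and 2 lower with FGF8b against control (median 0.65), where 37.8% of all tested genes were higher and 26.6% lower. With FGF8b plus BAY-876 25 were higher and 2 lower (median 1.13), where 36.8% and 35.9% of all tested genes were. With FGF1 8 were higher and 8 lower (27.6% each, median 0.02), where 19.3% and 15.1% of all tested genes were. Hspa9, a mitochondrial chaperone, averaged 103 RPKM with FGF1, 430.2 with FGF8b, 432 with FGF9, 474 with FGF8b plus BAY-876 and 110.3 in control. Odc1, the first enzyme of polyamine synthesis, averaged 26.6, 68.5, 79.1 and 53.1 RPKM in the 4 treated groups, in that order, and 20.4 RPKM in control. It was lower with FGF8b plus BAY-876 than with FGF8b (-0.37 ± 0.05, limma, adjusted p = 5.74e-06), a direction opposite to that of Myc in this comparison. Ldha, lactate dehydrogenase, averaged 408, 391, 374 and 431 RPKM, against 161 RPKM in control, and so was higher with FGF1 too (1.34, limma, adjusted p = 9.48e-09).

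Partners and rivals of MYC had no common direction, and the share of them that was higher was near or below that of all tested genes. Of 14 tested, 5 (35.7%) were higher and 3 lower with FGF8b against control (median -0.15), where 37.8% of all tested genes were higher and 26.6% lower. With FGF9 4 (28.6%) were higher and 4 lower, where 38.7% and 27% of all tested genes were. With FGF8b plus BAY-876 5 were higher and 5 lower (35.7% each), where 36.8% and 35.9% of all tested genes were. Mxd4, which competes with MYC for MAX and represses E-box genes, averaged 18.4 RPKM with FGF1, 8.42 with FGF8b, 6.76 with FGF9, 4.05 with FGF8b plus BAY-876 and 20.3 in control. Its log2 change was -1.22 ± 0.13 with FGF8b against control and -0.98 ± 0.13 with FGF8b plus BAY-876 against FGF8b (limma, adjusted p = 9.20e-07 and 1.44e-05). Ruvbl2, a cofactor of MYC, averaged 33.2, 38.2 and 37.6 RPKM with FGF8b, FGF9 and FGF8b plus BAY-876, against 14.9 RPKM in control.

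**Figure D5:**
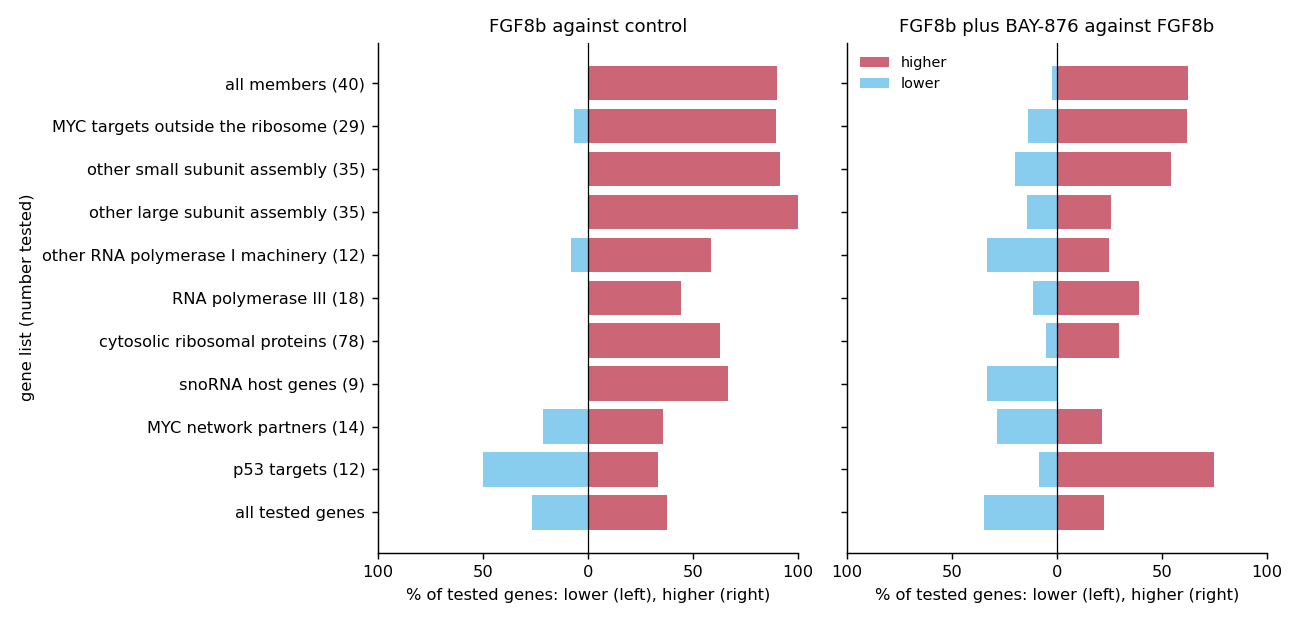
Share of tested genes that were higher (right) or lower (left) at an adjusted p under 0.05 (limma) in FGF8b against control and in FGF8b plus BAY-876 against FGF8b, for the 40 genes, 9 other gene lists with their number of tested genes, and all tested genes. In the first panel 90% of the 40 genes were higher, against 37.8% of all tested genes; in the second 62.5% were higher, against 22.5%.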

How the data were processed

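TruSeq RNA v2 libraries were made from total RNA and sequenced, per the labels. The submitters' processing notes name CASAVA and bcl2fastq; the aligner, genome build, annotation and strand setting: not given in the sources used here. The table of 168326 transcripts holds values deposited by the authors without a named unit. Written with decimal commas, they moved in whole-read steps (94.1% to 95.1% of values under 20 reads whole per library, tolerance 0.05 read), as RPKM do, and reads were recovered for all 13869 tested genes (tolerance 0.02 read). The transcript length found in this step equalled the annotated length for 90.9% of 3476 Ensembl transcripts checked, so some recovered reads may be off. The transcript with the highest mean stood for each symbol. Transcripts without a symbol (23172) were left out.

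limma 3.58.1 (R 4.3.3, eBayes with a mean-variance trend) was fitted on log2(RPKM + 0.5) with the 15 libraries in 5 groups (10 residual df). Genes had to reach 0.5 RPKM in 3 or more libraries. P-values were adjusted (Benjamini-Hochberg) within each comparison over all tested genes, with a threshold of 0.05. Values in every library are given for the MYC factors and for up to 6 genes per direction and comparison. These had the largest change among genes past the threshold whose groups did not overlap and whose mean reached 1 RPKM in a group. Exceptions are Polr1a, given as means, and Nat10 and Ddx21, given as log2 changes. Nolc1 and Nop2 are given by library for FGF8b and FGF8b plus BAY-876 only. Up to 4 genes of each other list were named by the same criteria in FGF8b against control. The other genes given with values, and the comparison of FGF8b with FGF1, were chosen after the values were seen. The 41 genes and all gene lists were chosen with earlier results of these data known. The main fit did not pair libraries by replicate number, and whether the numbers pair them was not settled. Figures were drawn with matplotlib 3.10.9. Alternatives changed the pseudocount (0.1 or 1), filter, scaling, transcript choice, groups in the fit, replicate block and test (voom), and left out each library.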

Additional observations from a re-analysis of the deposited data

How the results depend on the processing

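Counts of FGF8b, FGF9 and FGF8b plus BAY-876 against control, of FGF8b against FGF1, of FGF9 against FGF8b and over the 5 groups stayed within 1.5 times under all alternatives run, and no gene of the 40 changed direction while called. The number of genes higher with FGF1 than control was 2 and became 1 with the sum of transcripts, with voom on recovered reads and with the RefSeq transcript, the last chosen after seeing the data, and was 1 to 2 when a library was left out. The number lower with FGF1 was 8 and became 13 after trimmed-mean scaling and 4 to 7 when a library was left out. The number lower with FGF8b plus BAY-876 than FGF8b was 1 and became 0 after trimmed-mean scaling, 2 with the sum of transcripts (Mycn, which passed the filter there, is the second), 2 with the RefSeq transcript (Nop14 is the second) and 0 to 1 when a library was left out. The cause was not tested. The other counts ranged over left-out libraries from 35 to 37 (FGF8b), 37 to 38 (FGF9), 38 to 39 (FGF8b plus BAY-876 against control) and 23 to 26 (FGF8b plus BAY-876 against FGF8b). Whether libraries of the same replicate number belong together is not stated. Deviations from the group mean of 11 of 30 same-number pairs had correlations over 0.1 (lowest -0.443, highest 0.534). For 2 of 15 libraries, the closest library in every other group had the same replicate number. These values were not set against a chance level, so pairing was not settled. With the number as a block, the higher and lower genes were 2 and 10 for FGF1, 37 and 0 for FGF8b, 38 and 0 for FGF9, 38 and 0 for FGF8b plus BAY-876 against control, and 26 and 1 for FGF8b plus BAY-876 against FGF8b. Over all tested genes, FGF9 against FGF8b gave 41 calls, and 0 when only those 2 groups were fitted. Depth limits Mycn, which rests on 4 to 25 reads a group.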

Other observations

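Targets of p53 were read as a further list. Large T antigen, which all these cells carry, is known to bind p53. Of 12 tested targets, 9 were higher and 1 lower with FGF8b plus BAY-876 than with FGF8b (limma, adjusted p under 0.05; median 1.24), where 22.5% of all tested genes were higher and 34.8% lower. Against control, 10 were higher and 1 lower with FGF8b plus BAY-876, where 36.8% of all tested genes were higher and 35.9% lower. With FGF8b and with FGF9 4 were higher and 6 lower (33.3% higher and 50% lower in each), where 37.8% and 38.7% of all tested genes were higher and 26.6% and 27% lower. With FGF1 0 were higher and 9 lower (0 higher also at an unadjusted p under 0.05 and by voom), where 19.3% and 15.1% of all tested genes were. Ccng1, cyclin G1, averaged 29.7 RPKM with FGF1, 26.4 with FGF8b, 23.5 with FGF9, 75.2 with FGF8b plus BAY-876 and 62.0 in control, and Phlda3 averaged 8.44, 5.26, 5.57, 11.7 and 11.8 RPKM in the same order. Sesn1 and Sesn2, stress-response relatives, went opposite ways with FGF8b against control (-1.45 ± 0.07 and 1.86 ± 0.10, limma, adjusted p = 3.24e-11 and 3.29e-10). Cdkn1a, the cell cycle inhibitor p21, and Mdm2, the ligase that degrades p53, were picked after their values were seen. They averaged 55.2 and 75.4 RPKM with FGF8b plus BAY-876 and 15.9 and 27.3 RPKM with FGF8b (limma, log2 differences 1.76 and 1.45, adjusted p = 3.26e-11 and 5.05e-11).

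Tfrc, the transferrin receptor, also picked after its values were seen, had the largest rise with BAY-876 among the MYC targets outside the ribosome. It averaged 73.4 RPKM with FGF8b plus BAY-876 and 13.0 RPKM with FGF8b (limma, log2 difference 2.45, adjusted p = 4.49e-11), and the control mean was 8.02 RPKM.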
